A study of Homo sapiens with 12 samples.

Results

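The comparison of D20+ TGF-β with D20 covered 6 of the 12 RNA-seq libraries of the study, 3 for each condition. The cells were WI-38, a line of normal human lung fibroblasts from ATCC, labelled as passage 5 to 6 at day 20. D20+ TGF-β flasks received TGF-β at 2 ng/mL for 20 days and D20 flasks received the same medium without it. The other 6 libraries, from passage 2 to 3, were 3 untreated flasks (D1) and 3 flasks after 1 day of TGF-β (D1+ TGF-β). All D20+ TGF-β flasks were seeded from 1 treated flask and all D20 flasks from 1 untreated flask, so p-values measure only the spread between sister flasks of 1 line. No genotype was altered in any group.

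TGF-β is a cytokine that binds a pair of serine/threonine kinase receptors, which phosphorylate SMAD2 and SMAD3. The activated SMADs enter the nucleus with SMAD4 and change transcription together with other factors. In lung fibroblasts the cytokine is known for turning on genes of the contractile apparatus and of the extracellular matrix, the change called myofibroblast differentiation. Its negative feedback includes the inhibitory SMAD7, the ubiquitin ligases SMURF1 and SMURF2 and the repressors SKI and SKIL.

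The 6 day-20 libraries held 9899382 to 17651781 counts, and 9490 genes passed a filter of 10 cpm (counts scaled to the size of the library) in 6 libraries and were tested. A gene was called where edgeR's quasi-likelihood test gave a Benjamini-Hochberg adjusted p under 0.01. By that rule 27.5% of the genes tested were called, 12.8% higher and 14.7% lower in D20+ TGF-β, which are 1210 and 1399 genes. Without a correction for library composition the split was 1490 higher and 1153 lower. The shares of 12.8% and 14.7% are the background for every list count at D20 below. For list counts at D1 the background is lower, with 6.89% of the genes tested called higher and 6.5% called lower. Called genes with a log2 fold change of 2 or more in size made up 0.706% of those tested. Among the 2609 called genes, 1052 had a log2 fold change under 0.5 in size, and the median over all genes tested was 0.01 with 5th and 95th percentiles of −0.69 and 0.73. The flasks of the groups did not overlap for 58.3% of all genes tested and for 2606 of the 2609 called genes. A lack of overlap thus adds nothing to a call.

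Within D20+ TGF-β, replicate 3 stood apart. Its root mean square log2 distance was 0.297 and 0.291 from replicates 1 and 2, which were 0.14 apart. In replicate 3, 116 genes lay more than 1 log2 unit from the mean of the other 2 flasks, 97 below it and 19 above, and no gene did so in any D20 flask. For counts and calls below that changed without this flask, the value without it is given where the change bears on the statement.

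The 5 fibroblast markers summed to 14997 to 15818 cpm in D20 and 19282 to 20754 cpm in D20+ TGF-β. Among them the mean of COL1A1 went from 3762 to 7452 cpm and that of COL1A2 from 4331 to 5647 cpm. The median log2 fold change of the 5 was −0.00, with 1 called higher and 1 lower. Vimentin (VIM) was not called at a log2 fold change of −0.00 (SE 0.11). THY1, a surface glycoprotein of fibroblasts, fell from 632, 702 and 732 cpm to 290.3, 314 and 296 cpm. No endothelial, mesothelial or adipocyte marker passed the filter. Their summed levels were at most 1.97, 0.245 and 7.37 cpm in any D20 flask and at most 2.63, 0.411 and 1.43 cpm in any D20+ TGF-β flask. Epithelial markers summed to 15.6 to 20.3 cpm and 8.75 to 19 cpm, and mature smooth muscle markers to 52.5 to 60.4 cpm and 47.4 to 68 cpm, in D20 and D20+ TGF-β. LYZ, KRT5, CDH5 and ADIPOQ had no count in any of the 6 flasks. The leukocyte list summed to 53.7 to 59.9 cpm in D20 and 38.6 to 48.3 cpm in D20+ TGF-β, and CD68, the only member that passed the filter, was not called. In bulk RNA, fewer cells of a type and less RNA per cell cannot be told apart.

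**Figure D1:**
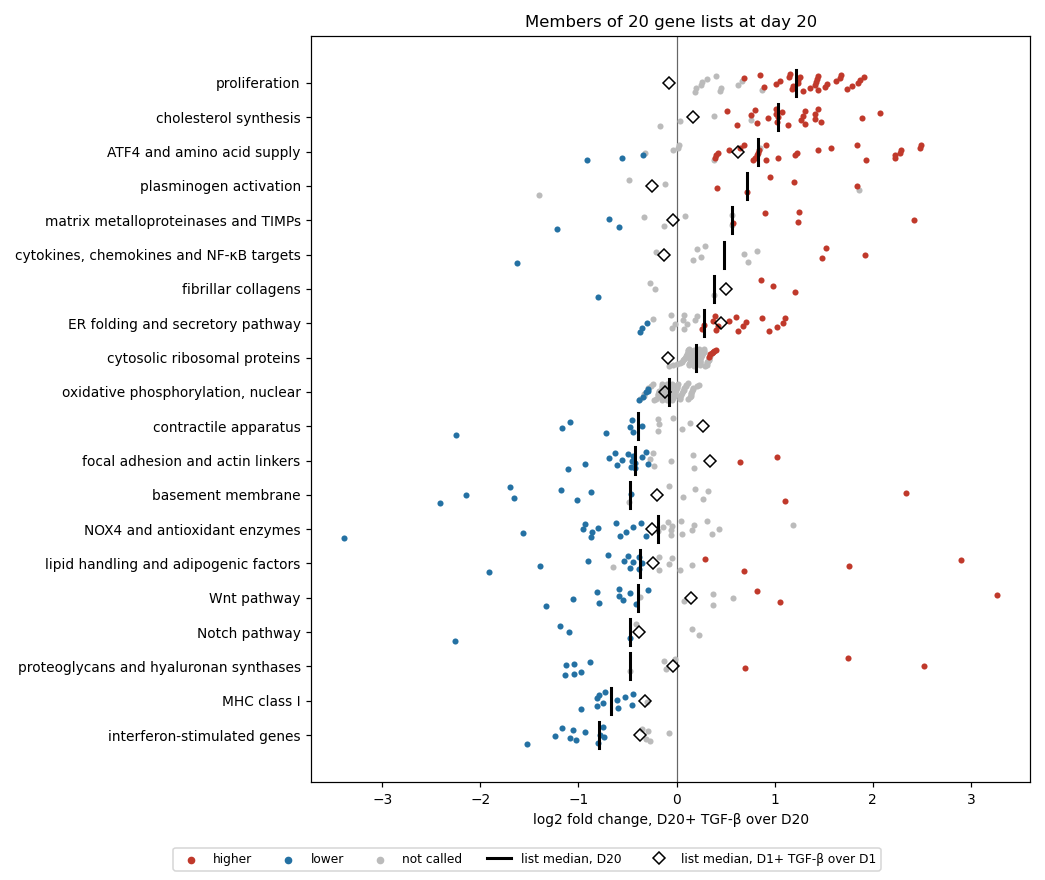
Log2 fold change of D20+ TGF-β over D20 for each tested member of 20 gene lists. Points are genes, red for called higher, blue for called lower and grey for not called, bars are list medians at D20 and diamonds are list medians of D1+ TGF-β over D1. Proliferation (median 1.21), cholesterol synthesis (1.03) and the ATF4 list (0.83) lie to the right, interferon-stimulated genes (−0.79) and MHC class I (−0.67) to the left.

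Large increases were seen in genes of several kinds. NTM, a lipid-anchored adhesion protein of neurons (chr11:131240373-132206716 in GRCh37, plus strand), rose from 21, 21.3 and 19.6 cpm to 135, 127 and 155 cpm, a log2 fold change of 2.75 (SE 0.09). KCNG1, a potassium channel subunit, rose from 1.46, 1.37 and 2.39 cpm to 11.8, 10.6 and 15.7 cpm, and POU2F2, a POU domain transcription factor, from 3.88, 3.11 and 3.55 cpm to 33.8, 20 and 17.2 cpm. MIR31HG, the non-coding host transcript of a microRNA, rose by 2.80 on the log2 scale (SE 0.19). These genes were chosen for a large fold and flasks that do not overlap, so the separation is part of the choice. KCNG1 reached 10 cpm only in the treated flasks of both days, so it passed the filter through the groups where it was high. POU2F2 and MIR31HG reached 10 cpm in every treated flask and in no D20 flask, so both passed mainly through the treated groups.

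Among the strongest decreases, RELN, which encodes the secreted glycoprotein reelin (chr7:103111828-103630105, minus strand), fell from 227, 226 and 285 cpm to 37.6, 40 and 41.9 cpm. INMT, a methyltransferase of small amines, fell from 130.4, 134 and 121 cpm to 20.3, 22.7 and 19.8 cpm. WFDC1, a secreted protein with a whey acidic domain, fell from 88.1, 106 and 102 cpm to 16.6, 17.4 and 7.55 cpm. They were chosen by the same rule, and their log2 fold changes lay between −2.82 and −2.62. ANKRD33B, chosen likewise, was at −2.92 (SE 0.12). ANKRD33B reached 10 cpm only in the untreated flasks of both days, so it passed the filter through the groups where it was high.

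A further 4095 genes reached 10 cpm in fewer than 6 of the 12 libraries but could be fitted on the 6 day-20 libraries, and 17.6% of them were called, 7.79% higher and 9.82% lower, which are 319 and 402 genes. A gene expressed in 1 of the groups alone could enter this set through that group, so these shares describe the set and support nothing about its members. The largest increases there included VGF, the precursor of neuroendocrine peptides, at 0.194, 0.228 and 0.245 cpm in D20 and 20.5, 22.4 and 33.5 cpm in D20+ TGF-β. SYT7, a calcium sensor of vesicle fusion, was at 0.291, 0.228 and 0.122 cpm against 10.2, 13 and 21.4 cpm. COL10A1, a short-chain collagen of hypertrophic cartilage, was at 1.94, 0.911 and 1.1 cpm against 41.5, 45.3 and 51.1 cpm. WNT7B, a secreted Wnt ligand, had no count in any D20 flask and 90 counts over the 3 D20+ TGF-β flasks, which is at least 31.7-fold higher against a floor of 3 counts over the group. Its call was lost without any 1 of the D20 flasks or D20+ TGF-β replicate 2, and its fitted log2 fold change, which depends on the prior count, was 7.12 without replicate 3.

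In the other direction, the integrin subunit ITGA8, which pairs with ITGB1 to bind RGD ligands, fell from 106, 123 and 120.1 cpm to 4.12, 5.45 and 2.49 cpm, a log2 fold change of −4.86 (SE 0.17). GPC4, a heparan sulfate proteoglycan held at the membrane by a lipid anchor, fell from 54.8, 66.9 and 74.8 cpm to 3.03, 4.11 and 2.1 cpm. PLAAT4, a phospholipase and acyltransferase, was at 6.5, 7.82 and 6.67 cpm against 0.343, 0.308 and 0 cpm. All 3 D20+ TGF-β flasks lay below every D20 flask in each case. The genes were chosen for a large fall, so the separation is part of the choice.

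Transcripts of the contractile apparatus did not rise as a group at day 20. Of 14 tested members, 0 were called higher, 8 were called lower and 6 were not called, with a median log2 fold change of −0.40, and 5 to 11 were called lower over the alternatives. ACTA2, smooth muscle α-actin, stood at 277, 288 and 297 cpm in D20 and 285, 302 and 357 cpm in D20+ TGF-β, so the flasks overlapped and the gene was not called (log2 fold change 0.13, SE 0.17). TAGLN, the actin-binding protein transgelin, gave 1066, 1102 and 1134 cpm against 1095, 1091 and 1250 cpm and was not called either. After 1 day the same genes had been called higher, at log2 fold changes of 2.07 and 0.87, and the difference of the responses was called for both (adjusted p = 1.23e-04 and 0.00842). TPM1, a tropomyosin that runs along actin filaments, went from 366 to 1610 cpm at D1 and from 520.5 to 457 cpm at D20, where it was not called.

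Among the members that fell, LMOD1, leiomodin 1, which nucleates actin filaments in smooth muscle (chr1:201865584-201915676, minus strand), dropped from 107, 121 and 126 cpm to 21.4, 25 and 29 cpm, a log2 fold change of −2.24 (SE 0.10). MYLK, the kinase that phosphorylates the regulatory myosin light chain, dropped from 2322, 2364 and 2433 cpm to 1209, 1287 and 856 cpm. MYL9, that light chain, dropped from 888, 912 and 877 cpm to 545, 531 and 547 cpm. In these 3 genes, as in 2606 of the 2609 called genes, the flasks of the groups did not overlap. CNN1, calponin, was called lower at −0.44 (SE 0.11), with a range of −0.54 to −0.38 over the alternatives, and was not called without any 1 of the D20 flasks or of D20+ TGF-β replicates 1 and 2. The means of MYLK and LMOD1 were 2373 and 118 cpm in D20 and 1344 and 47.8 cpm in D1, a difference that was not tested.

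Of 23 focal adhesion and actin linker genes, 15 were called lower and 2 higher, with a median of −0.42, where 10 had been called higher and 0 lower at D1. ACTN1, α-actinin 1, which cross-links actin filaments, fell from 879.9, 899 and 904 cpm to 637, 647 and 672 cpm, after a rise of 0.46 on the log2 scale at D1. PARVA, parvin α, fell by 0.43 on the log2 scale and LIMS2, a LIM-domain partner of integrin-linked kinase, fell by 1.11. LIMS1, the paralog of LIMS2, rose from 85.8, 81.8 and 80.2 cpm to 164, 170.1 and 168 cpm. Integrin subunits split, with 3 of 13 called higher and 3 lower, against 12.8% and 14.7% of all genes. ITGA11, a collagen receptor subunit, rose from 101, 103 and 109 cpm to 229, 250.1 and 184 cpm, and ITGB3 fell from 35.6, 41.1 and 46.8 cpm to 18.9, 18.7 and 14 cpm.

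Serum response factor binds the CArG box, a pair of C, a run of A or T and a pair of G, and many contractile genes carry it. The box, searched on both strands from 250 bases before to 50 bases after the transcription start in RefSeq promoters (GRCh38.p14), was present in 4 of the 12 contractile genes with a promoter in that table and in 4 of 20 adhesion genes, against 1.6% of 27305 genes with a promoter. Of the carriers, 2 of 4 contractile and 3 of 4 adhesion genes were called lower, where 8 of 14 and 15 of 23 were over the lists as a whole. Shown here are the windows of the 2 named genes with the smallest p, with the box in capitals, 5′ to 3′ on the gene's strand. The MYLK window is chr3:123620613-123620662 (minus strand, box at −94 to −85 from the start) and the ACTN1 window chr14:68977708-68977757 (minus strand, −171 to −162).
MYLK: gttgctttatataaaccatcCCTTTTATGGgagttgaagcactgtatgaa
ACTN1: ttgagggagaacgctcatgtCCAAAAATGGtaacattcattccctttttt
SRF itself, the factor that binds the box, was called lower by a small margin, at −0.31 (SE 0.08), and lost the call under 13 of 18 alternatives, every setting that left out 1 flask among them.

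**Figure D2:**
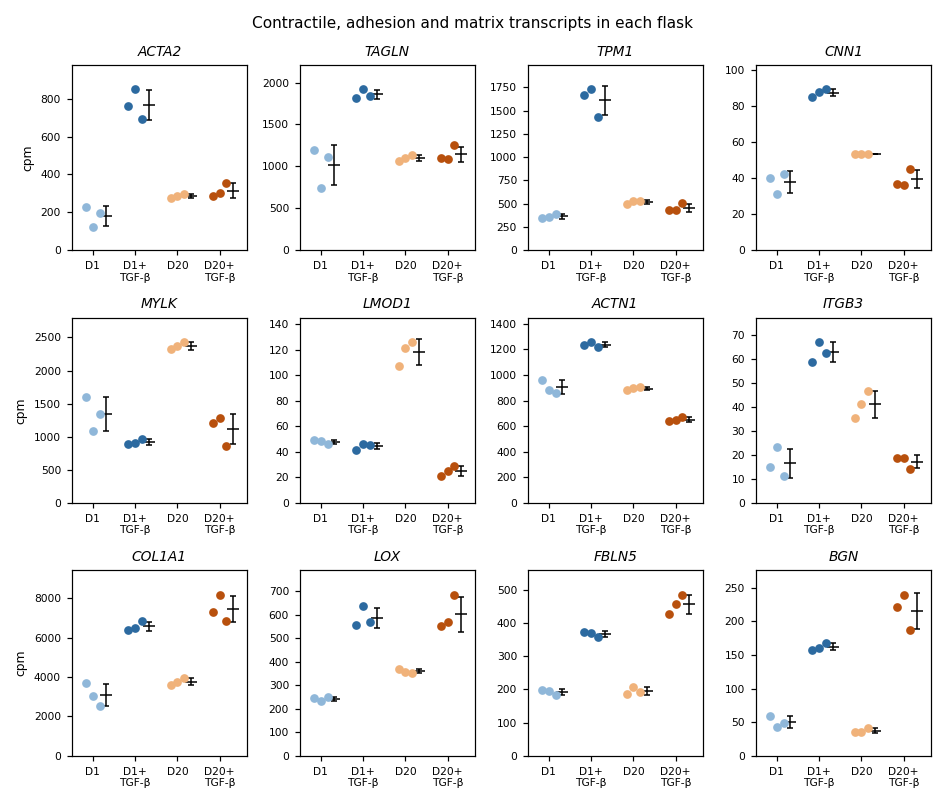
Levels in cpm of 12 contractile, adhesion and matrix transcripts in each of the 12 flasks. Points are flasks and the bar is the mean with 1 SD. ACTA2, TAGLN and TPM1 are high in D1+ TGF-β and level between D20 and D20+ TGF-β, LMOD1, MYLK, ACTN1 and ITGB3 are lower in D20+ TGF-β, and COL1A1, LOX, FBLN5 and BGN are higher.

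Matrix genes changed in both directions. Of 7 fibrillar collagens, 3 were called higher and 1 lower, against 12.8% and 14.7% of all genes. COL1A1, the α1 chain of type I collagen, rose from 3582, 3752 and 3952 cpm to 7305, 8184 and 6866 cpm, and COL11A1 from 15.6, 19.4 and 21.2 cpm to 39.5, 48.2 and 43.2 cpm. COL5A2 fell from 1054, 1076 and 1079 cpm to 669, 742 and 436 cpm while its partner chain COL5A1 rose by 0.87. COL1A2 was not called, with a log2 fold change of 0.38 (adjusted p = 0.016), but was called under 7 of 18 alternatives, among them without replicate 3 (0.45, adjusted p = 0.00845). COL3A1 was at 1288, 1429 and 1443 cpm against 1354, 1498 and 728 cpm, where only replicate 3 lay below the D20 flasks.

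Elastic fibre and fibronectin genes were called higher in 4 of 11 and lower in 1, and in 6 and 1 without replicate 3. FBLN5, fibulin 5, which organises elastic fibres, rose from 186, 207 and 191 cpm to 426, 456 and 485 cpm (log2 fold change 1.23, SE 0.07). MFAP4, a microfibril-associated protein, rose from 87.7, 93.4 and 87 cpm to 264, 316 and 175 cpm, with replicate 3 lowest and still above every D20 flask. ELN, elastin, was outside the filter at 0.582, 1.52 and 0.428 cpm against 7.09, 7.29 and 4.49 cpm, and its D1+ TGF-β mean was 54.9 cpm. Collagen processing and cross-linking genes were called higher in 7 of 24 and lower in 6, and other collagens in 2 and 0 of 9. Over all genes the shares were 12.8% and 14.7%. The cross-linker LOX rose from 371, 358 and 354 cpm to 551, 567 and 685 cpm, and LOXL2 fell by 0.47 on the log2 scale.

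Of 13 proteoglycan and hyaluronan synthase genes, 3 were called higher and 6 lower, and of 11 matricellular genes 3 were called higher and 0 lower. BGN, biglycan, rose from 35.3, 35.6 and 41.3 cpm to 221, 239.6 and 187 cpm, and VCAN, versican, from 240.3, 264 and 286 cpm to 825, 1027 and 808 cpm. THBS2, thrombospondin 2, rose from 21.7, 23.5 and 25.5 cpm to 141, 166 and 137 cpm. The flasks of these 3 genes did not overlap, as in nearly all called genes. DCN, decorin, fell from 879, 1005 and 1122 cpm to 497, 553 and 476 cpm. The membrane proteoglycans SDC3, SDC4 and GPC1 were called lower at −1.04, −0.89 and −1.14, and SDC1 was called higher at 0.70. CCN2, a matricellular target of both TGF-β and YAP, gave 446, 441 and 447 cpm against 267, 280.3 and 276 cpm and missed the threshold at an adjusted p of 0.0156.

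Of 16 basement membrane genes, 8 were called lower, 2 higher and 6 were not called, at a median of −0.47. Over all genes, 14.7% were called lower and 12.8% higher. LAMA5 and LAMB1, laminin chains, fell by 1.66 and 1.18 on the log2 scale. NID2, nidogen 2, which links laminin to collagen IV, fell from 483, 536 and 573 cpm to 112, 118 and 69.8 cpm. The exceptions were LAMA1 and COL15A1, a multiplexin collagen that rose from 8.83, 8.27 and 6.73 cpm to 34.1, 42.1 and 43.4 cpm. COL15A1 was not called at D1 (0.07), and the difference of the responses was called (adjusted p = 1.13e-04).

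Proteases and their inhibitors also split. Of 13 metalloproteinase and TIMP genes, 5 were called higher and 3 lower. MMP2, gelatinase A, rose from 1512, 1673 and 1603 cpm to 3902, 4061 and 3394 cpm, MMP14, which activates it at the membrane, rose by 0.90 (SE 0.09), and RECK, a membrane inhibitor of both, fell from 145, 171 and 178 cpm to 74, 74.1 and 63.4 cpm. ADAMTS proteases were called lower in 5 of 8 and higher in 1 (5 and 0 without replicate 3), against 14.7% and 12.8% of all genes. ADAMTS1 fell from 510.3, 607 and 663 cpm to 139, 156 and 92.1 cpm. In plasminogen activation, 5 of 9 were called higher and 0 lower. SERPINE2, protease nexin 1, rose from 262, 286 and 279.7 cpm to 1081, 1050 and 843 cpm.

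Of 15 TGF-β ligand, receptor and latency genes, 3 were called higher and 4 lower, against 12.8% and 14.7% of all genes. TGFB2 fell from 67.5, 74.4 and 73.6 cpm to 19.4, 22 and 19 cpm, whereas TGFB1 was not called at 0.51 (adjusted p = 0.0344). The type II receptor TGFBR2 fell from 497, 525 and 522 cpm to 363, 380.2 and 344 cpm, and the co-receptors TGFBR3 and ENG fell by 0.56 and 0.98 on the log2 scale. TGFBR1, the type I receptor, was not called at 0.37. LTBP2, a microfibril protein of the latent TGF-β binding family, rose from 294, 312 and 309.6 cpm to 1246, 1475 and 1417 cpm.

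Among 18 SMAD and feedback genes, 4 were called higher and 3 lower, against the same 12.8% and 14.7%. PMEPA1, an inhibitor of SMAD activation, rose from 6.69, 7.51 and 8.51 cpm to 23.5, 21.4 and 15.9 cpm, SKIL by 0.87 and TGIF1, a SMAD corepressor, by 1.04. PMEPA1 reached 10 cpm in every treated flask of both days and in no D20 flask, so it passed the filter mainly through the treated groups. SMAD7 was not called, at 12.8, 13.4 and 12.6 cpm against 13.6, 11 and 8.03 cpm. SMURF2 fell from 519, 498 and 502 cpm to 229, 225 and 300.5 cpm after a rise of 0.55 at D1, and the pseudoreceptor BAMBI fell by 1.12. Of 13 BMP pathway genes, 4 were called higher and 2 lower, against the same 12.8% and 14.7%. The ligand BMP4 fell from 109, 127 and 136 cpm to 32.9, 39.2 and 17.5 cpm. Its extracellular antagonist GREM1 rose from 318, 376 and 439 cpm to 951, 899 and 929.8 cpm, and FST, which binds activins, rose by 1.77 (SE 0.11). The SMAD1 targets ID1 and ID3 were not called, with replicate 3 below every D20 flask and the other 2 D20+ TGF-β flasks at about the D20 level for ID1 (26.7 and 21.2 cpm against 23.4, 25.9 and 21.7 cpm).

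Wnt pathway members were called lower in 10 of 18 and higher in 3, and in 7 and 4 without replicate 3. Over all genes the shares were 14.7% and 12.8%. FZD8, a Wnt receptor, rose from 1.07, 1.37 and 1.16 cpm to 12.1, 10.4 and 12.5 cpm, and DKK1, a secreted antagonist, by 1.05. FZD8, counted among those called higher, reached 10 cpm only in the treated flasks of both days. It passed the filter through the groups where it was high. WNT16 fell from 79.3, 69.3 and 78.3 cpm to 29.6, 31.7 and 29.3 cpm, and SFRP1, another secreted antagonist, from 1989, 1912 and 2001 cpm to 1021, 1096 and 1255 cpm. Notch genes were called lower in 4 of 7 and higher in 0, led by the ligand JAG1 from 53.3, 53.7 and 55.1 cpm to 11.6, 13 and 9.27 cpm and by NOTCH3 at −1.19 (SE 0.15). Of 16 YAP and TEAD genes, 6 were called lower and 0 higher, among them LATS2, a kinase that restrains YAP, at −0.89 (SE 0.11).

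In the IGF axis 4 of 12 genes were called higher and 2 lower, against 12.8% and 14.7% of all genes. IGFBP3, a binding protein of IGFs, rose from 31.8, 31.3 and 33.9 cpm to 166, 191 and 179 cpm. Its rise of 2.46 at D20 was smaller than that of 4.04 at D1 (adjusted p of the difference = 0.00194). IGFBP5 and IGFBP6 fell by 1.66 and 1.23 on the log2 scale. Of 23 growth factors and receptor tyrosine kinases, 4 were called higher and 8 lower, against the same 12.8% and 14.7%. HGF, the ligand of MET, fell from 535, 465 and 464 cpm to 214, 226 and 160.2 cpm while MET rose by 0.86, and KITLG fell from 296, 289 and 296 cpm to 95.5, 117 and 96.3 cpm. PDGFC and VEGFB rose by 0.78 and 0.73. Of 21 mesenchymal transcription factors, 5 were called in each direction, against the same 12.8% and 14.7%. PRRX1, a homeobox factor of mesenchyme, rose from 84.8, 78.6 and 73.1 cpm to 138, 135 and 196 cpm, TWIST1 rose by 0.72, and ZEB1, FOXF2 and OSR1 fell by 0.65, 0.88 and 1.51 on the log2 scale.

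Cholesterol synthesis genes were mostly higher. Of 26 tested members, 22 were called higher and 0 lower, against 12.8% of all genes called higher, with a median of 1.03 that ranged from 0.99 to 1.08 over the alternatives. After 1 day, 2 of the 26 had been called higher and 1 lower, with a median of 0.17. INSIG1, which holds the sterol sensor in the endoplasmic reticulum, rose from 86.1, 87.4 and 90 cpm to 395, 391 and 325 cpm. HMGCS1, the synthase of the first committed intermediate, rose from 93.8, 93.8 and 96.6 cpm to 338, 354 and 364 cpm, and CYP51A1, which demethylates lanosterol, from 127, 135 and 144 cpm to 250.4, 272 and 250.2 cpm. The 6 flasks of each of these genes fell into separate ranges by condition, as in nearly all called genes. For INSIG1 and CYP51A1 the response at D20 exceeded that at D1 (differences of 1.46 and 0.60 on the log2 scale, adjusted p = 5.94e-04 and 0.00742), and for HMGCS1 that difference did not pass the threshold (adjusted p = 0.012).

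SCD, the desaturase that makes monounsaturated fatty acids, was one of the genes with the largest gain in share of the library, from 0.0594% to 0.201% of counts. Its level was 565, 606 and 611 cpm in D20 and 1866, 2107 and 2066 cpm in D20+ TGF-β. Fatty acid binding proteins rose too, with FABP3 at 7.27, 9.03 and 8.26 cpm against 50.9, 53.9 and 79.6 cpm and FABP5 at 5.72, 4.48 and 5.26 cpm against 13.2, 13.2 and 26.6 cpm. Of 22 lipid handling genes, FABP3 and FABP5 included, 11 were called lower and 4 higher. PPARG, the nuclear receptor of adipogenesis, fell from 64.4, 63.7 and 60.2 cpm to 21.2, 26 and 25.2 cpm, PLIN2, which coats lipid droplets, fell by 0.90 on the log2 scale, and CPT1A, the gate of mitochondrial fatty acid oxidation, fell by 0.50.

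Amino acid synthesis, transport and tRNA charging genes were mostly higher at both times. Of 35 members of the ATF4 list, 26 were called higher and 3 lower at D20 (24 and 3 without replicate 3) and 23 higher and 1 lower at D1. ASNS, asparagine synthetase, rose from 19.5, 22.3 and 24.4 cpm to 91, 79.4 and 141 cpm. PHGDH, the first enzyme of serine synthesis, rose from 21.3, 20.7 and 23.5 cpm to 86.7, 83.9 and 137 cpm, and SLC7A5, the large neutral amino acid transporter, from 16.4, 15.5 and 16.9 cpm to 83.5, 83 and 108 cpm. Replicate 3 was the highest of the 3 D20+ TGF-β flasks in each, and the other 2 still lay above every D20 flask. ATF4 itself, the transcription factor that drives these genes, rose from 149, 159 and 158 cpm to 280.1, 256 and 339 cpm. Members called lower included SLC7A11, the cystine transporter (−0.56), and WARS1, a tRNA synthetase also induced by interferon (−0.92).

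The ER folding and secretory list had 16 of 29 called higher and 3 lower (12 and 3 without replicate 3), with a median of 0.28. HSPA5, the chaperone BiP, rose from 726, 790.2 and 813 cpm to 1466, 1271 and 1750 cpm, MANF by 1.09 and XBP1 by 0.70. SEC31A and KDELR2, which serve transport between the ER and Golgi, fell by 0.30 and 0.36 on the log2 scale.

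Both lists are known to be driven through short promoter elements, which were searched as above. TGATGNAA, the core that ATF4 binds with a C/EBP partner, was present in 12 of the 29 members of the ATF4 list with a promoter, against 4.46% of all 27305 genes. Of those 12, 10 were called higher, where 26 of 35 were over the list. The ER stress element, CCAAT and CCACG with any 9 bases between, was present in 7 of 26 ER list members against 0.0916% of all genes, and 4 of the 7 were called higher, where 16 of 29 were over the list. The windows of 2 called members are shown for each element as examples, with the match in capitals. They are chr19:33374051-33374098 (plus strand) for CEBPG, chr7:97872449-97872496 (minus) for ASNS, chr9:125241371-125241429 (minus) for HSPA5 and chr22:28800583-28800641 (minus) for XBP1.
CEBPG: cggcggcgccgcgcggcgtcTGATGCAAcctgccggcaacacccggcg
ASNS: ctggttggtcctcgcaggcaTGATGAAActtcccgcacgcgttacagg
HSPA5: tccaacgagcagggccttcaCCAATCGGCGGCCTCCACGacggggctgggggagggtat
XBP1: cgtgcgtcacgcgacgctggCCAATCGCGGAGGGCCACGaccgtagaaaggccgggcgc
CEBPG, a partner of ATF4, rose from 14.5, 15.5 and 14.7 cpm to 41, 39.7 and 53 cpm.

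ARRDC4, an α-arrestin that limits glucose uptake, fell from 129, 129 and 150.1 cpm to 14.6, 18.3 and 17.8 cpm, beside its paralog TXNIP, which had the largest decrease of all genes tested (−5.27). TXNIP reached 10 cpm only in the untreated flasks of both days, so it passed the filter through the groups where it was high. MLXIP, the shared regulator of TXNIP and ARRDC4, fell by 0.89 on the log2 scale (SE 0.13). Both TXNIP and ARRDC4 carry E-box-like elements near the start. A pair of CACGAG with any 5 bases between was present for 1 of 27 genes of the glycolysis list with a promoter, TXNIP, and for 2 of all 27305 genes, and CACGTG for 9 of 27 and 8.77%. The windows are chr1:145996631-145996687 (minus strand, element at −88 to −72) for TXNIP and chr15:97960473-97960518 (plus, −210 to −205) for ARRDC4.
TXNIP: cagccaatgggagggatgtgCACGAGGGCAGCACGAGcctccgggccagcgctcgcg
ARRDC4: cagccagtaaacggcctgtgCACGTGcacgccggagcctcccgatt
Glycolytic enzymes showed small changes. GAPDH and LDHA were not called, and PFKP and ENO2 rose by 0.52 and 0.60. PDK1, a pyruvate dehydrogenase kinase, fell from 60.9, 50.4 and 49.1 cpm to 23.9, 25.4 and 31.7 cpm. Over the list of 29, 5 were called higher and 9 lower, against 12.8% and 14.7% of all genes.

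Of 27 antioxidant and NOX4 list members, 13 were called lower and 0 higher, with 2 called higher without replicate 3. GPX3, the secreted glutathione peroxidase, fell from 62.6, 81.6 and 69.3 cpm to 8.46, 7.09 and 4.3 cpm. The NRF2 target NQO1 fell from 523, 607 and 599.8 cpm to 222, 212 and 151 cpm, TXNRD1 from 1042, 1103 and 1138 cpm to 596, 626 and 585 cpm and PRDX1 by 0.93 on the log2 scale. HMOX1, heme oxygenase 1, was not called at −0.04. NOX4, the oxidase that makes hydrogen peroxide, was outside the filter at 0.873, 1.14 and 0.918 cpm against 6.12, 5.75 and 7.27 cpm, and its D1+ TGF-β mean was 22.9 cpm.

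Genes of cell division were mostly higher in D20+ TGF-β than in D20. Of 40 tested members, 29 were called higher and 0 lower, and the count was also 29 without replicate 3, with medians of 1.21 and 0.99. CDC20, the activator of the anaphase-promoting complex, rose from 8.15, 9.33 and 7.41 cpm to 28, 22 and 35.7 cpm, and its D1 mean was 75.9 cpm. MKI67, which encodes Ki-67, was at 25.8, 19.8 and 19.9 cpm against 54.1, 53.6 and 110.2 cpm, and its D1 mean was 194 cpm. HJURP, which loads the centromeric histone, rose from 5.33, 4.48 and 3.61 cpm to 14.1, 12.2 and 21.4 cpm. Replicate 3 was the highest D20+ TGF-β flask for 40 of the 40 members. In CDC20, MKI67 and HJURP the groups did not overlap with or without it, and nearly all called genes had no overlap. PCNA was not called at 0.26. At D1 the list had 0 called higher and 2 lower.

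The cell cycle homology element TTTGAA was present in 13 of the 32 proliferation genes with a promoter against 18.2% of all genes, and 11 of the 13 were called higher, where 29 of 40 were over the list. CDC20 (chr1:43358896-43358941, plus strand) and HJURP (chr2:233854621-233854666, minus) are shown as the 2 called members with the smallest p.
CDC20: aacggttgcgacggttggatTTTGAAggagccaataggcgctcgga
HJURP: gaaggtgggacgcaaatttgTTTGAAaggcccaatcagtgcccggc
In the list of CDK inhibitors and G1 regulators, 3 of 16 were called higher and 2 lower, near the 12.8% and 14.7% of all genes. CDKN2B, the inhibitor p15, rose from 14.4, 16.8 and 14.8 cpm to 90.4, 94.3 and 61.3 cpm, and CDK4, which it blocks, rose by 0.68. The D-type cyclins fell, CCND3 from 126, 131 and 138 cpm to 48.4, 48.3 and 44.6 cpm and CCND1 by 0.61 on the log2 scale. CDKN1A, the inhibitor p21, was not called at −0.05 (SE 0.10).

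**Figure D3:**
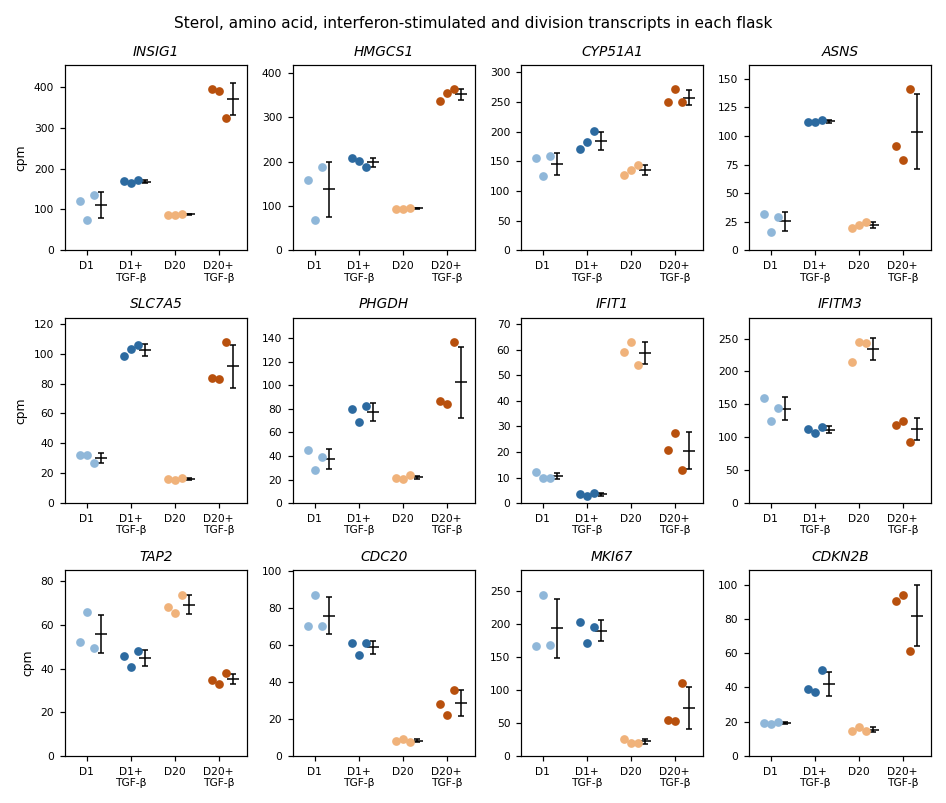
Levels in cpm of 12 transcripts of sterol synthesis, amino acid supply, interferon response, antigen presentation and cell division in each of the 12 flasks. Points are flasks and the bar is the mean with 1 SD. INSIG1, HMGCS1 and CYP51A1 are highest in D20+ TGF-β, ASNS, SLC7A5 and PHGDH are high in both treated groups, IFIT1, IFITM3 and TAP2 are highest in D20, and CDC20 and MKI67 are higher in D20+ TGF-β than in D20 and highest in the D1 groups.

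Interferon-stimulated genes and MHC class I genes were lower. Of 16 tested interferon-stimulated genes, 11 were called lower and 0 higher, against 14.7% of all genes called lower, with a median of −0.79 and no positive value among the 16. IFIT1, an RNA-binding antiviral protein, fell from 59, 63.1 and 54.2 cpm to 20.9, 27.6 and 13 cpm. IFITM3, a membrane protein that blocks viral entry, fell from 215, 245 and 243 cpm to 119, 125 and 93.2 cpm, and PARP9 from 48.3, 47.4 and 49.9 cpm to 21.1, 25.1 and 22.6 cpm. ISG15 was not called, at −0.27. The IFIT1 mean was 10.6 cpm in D1 and 3.39 cpm in D1+ TGF-β, a log2 fold change of −1.70 that was also called, and its D20 mean was above both.

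Of 12 MHC class I and peptide-loading genes, 11 were called lower and 0 higher. TAP2, a subunit of the peptide transporter, fell from 68.2, 65.5 and 73.9 cpm to 34.9, 33.1 and 37.8 cpm, and ERAP1, which trims the peptides, from 109, 113 and 111 cpm to 66, 58.8 and 65.4 cpm. HLA-B, HLA-C and HLA-E, whose reads can be split between near-identical paralogs, were called lower at −0.81, −0.60 and −0.79. B2M, the common light chain, fell by 0.52 on the log2 scale (SE 0.08).

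The core of the interferon-stimulated response element, GAAA and GAAA with any 2 bases between, was present in 8 of the 13 interferon-stimulated genes with a promoter against 4.38% of all genes, and 6 of the 8 were called lower, where 11 of 16 were over the list. PARP9 (chr3:122564312-122564361, minus strand, match on the opposite strand) and IFITM3 (chr11:320866-320915, minus strand) are shown as the called members with the smallest p.
PARP9: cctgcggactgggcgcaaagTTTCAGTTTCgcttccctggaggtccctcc
IFITM3: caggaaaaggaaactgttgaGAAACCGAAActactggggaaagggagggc

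The cytokine and NF-κB list depended on 1 flask. With all flasks, 3 of its 12 tested members were called higher and 1 lower, and without D20+ TGF-β replicate 3 the counts were 8 and 1. TNFAIP3, the NF-κB feedback inhibitor A20, was at 9.6, 10.1 and 11.4 cpm in D20 and 71, 35.3 and 9.66 cpm in D20+ TGF-β, and its log2 fold change was 1.93 with and 2.37 without replicate 3. The call was lost under limma, in a fit of the 6 day-20 libraries, without any 1 of the D20 flasks and without D20+ TGF-β replicate 1, where it was at its lowest, 1.11. CCL2, a monocyte chemokine, was at 20.6, 17.5 and 23.3 cpm against 64.8, 35.8 and 5.16 cpm and was not called at 0.82, but was called at 1.31 without replicate 3 (edgeR adjusted p = 0.00271). CXCL8, the neutrophil chemokine interleukin 8, was outside the filter at 0.582, 1.59 and 0.857 cpm against 198, 71 and 3.92 cpm, and IL6 was at 5.14, 7.44 and 8.81 cpm against 39.3, 15.7 and 4.11 cpm, not called with replicate 3 and called without it (log2 fold change 1.99). Replicate 3 was the lowest D20+ TGF-β flask for all 12 tested members. IL11, a cytokine of the IL-6 family induced by TGF-β in fibroblasts, rose from 6.69, 5.01 and 5.51 cpm to 19.7, 16.3 and 11 cpm, above every D20 flask in all 3. CSF1, a macrophage growth factor, fell from 86.9, 103 and 104 cpm to 37, 35.7 and 22.1 cpm. Complement genes and A2M were called higher in 1 of 12 and lower in 3, and in 2 and 2 without replicate 3. Over all genes the shares were 12.8% and 14.7%.

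Genes picked after their values were seen as those farthest apart in replicate 3 included SOD2 and TFPI2. SOD2, the mitochondrial superoxide dismutase, was at 347, 416 and 407 cpm in D20 and 1451, 943 and 268 cpm in D20+ TGF-β. TFPI2, a Kunitz protease inhibitor, was at 48.6, 49.3 and 39.9 cpm against 277, 198 and 21.1 cpm. Among named genes, TCF21, a transcription factor of lung mesenchyme, was at 174, 171 and 165 cpm against 132, 116 and 36.6 cpm. What set this flask apart was not tested.

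**Figure D4:**
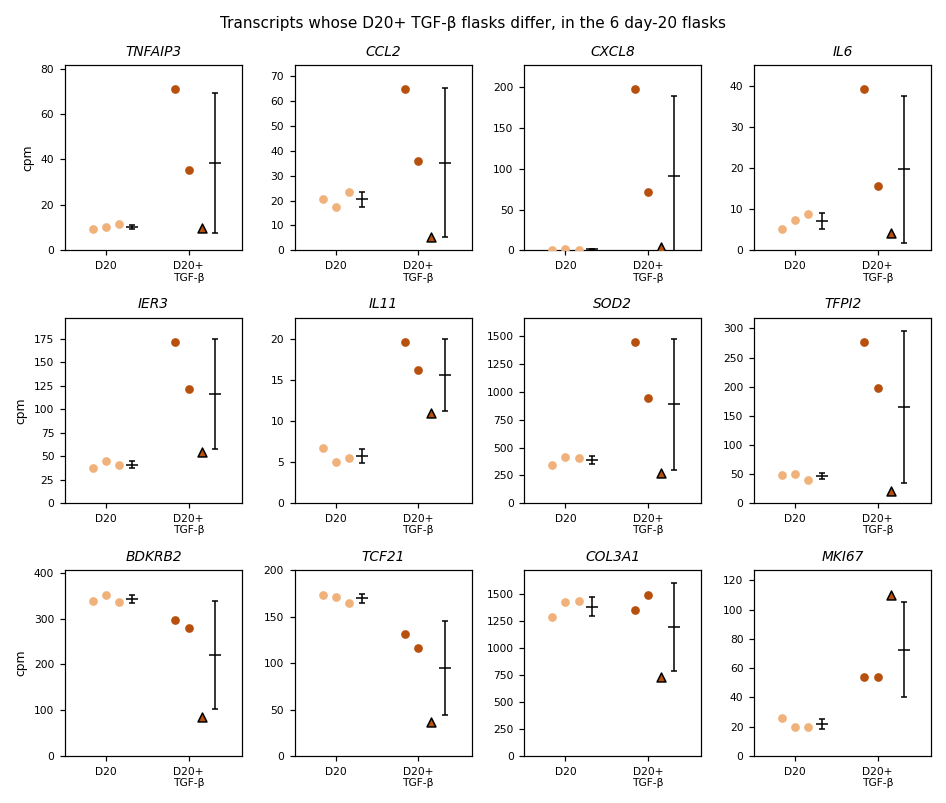
Levels in cpm of 12 transcripts in the 6 day-20 flasks. Circles are flasks, the triangle is D20+ TGF-β replicate 3, and the bar is the mean with 1 SD. Replicate 3 is at or below the D20 level for TNFAIP3, CCL2, IL6, SOD2 and TFPI2, where replicates 1 and 2 are above it, and is the highest flask for MKI67.

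Receptors for contractile and relaxing agonists were called lower in 7 of 15 and higher in 2 (5 and 3 without replicate 3). Over all genes the shares were 14.7% and 12.8%. CHRM2, a muscarinic acetylcholine receptor (chr7:136553399-136705002, plus strand), fell from 50.5, 48.3 and 54.1 cpm to 8.06, 8.73 and 6.6 cpm, and PTGER2, a prostaglandin E2 receptor that raises cAMP, from 50.3, 61.4 and 64.4 cpm to 21.5, 26.2 and 16.9 cpm. CHRM2, counted among those called lower, reached 10 cpm only in the untreated flasks of both days. It passed the filter through the groups where it was high. AGTR1, the angiotensin II receptor, was outside the filter at 14, 18.1 and 17.6 cpm against 2.69, 1.95 and 1.05 cpm. F2RL1, a protease-activated receptor, rose from 5.92, 5.92 and 5.57 cpm to 22.6, 21.6 and 22.8 cpm. BDKRB2, a bradykinin receptor, was not called, at 339, 353 and 336 cpm against 298, 280.2 and 84 cpm. PDE5A, the phosphodiesterase that degrades cGMP, had one of the largest losses in share of the library, from 0.337% to 0.0856% of counts.

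The responses at the 2 times shared no library. Across the genes tested, the log2 fold changes at D20 and D1 had Pearson's r = 0.50 and Spearman's rho = 0.38, given as a description since genes are not independent replicates. Of the 2609 genes called at D20, 300 were called higher and 337 lower at both times, 1904 were not called at D1, and 74.7% had the same sign at D1. The difference of the responses was called for 985 genes, 10.4% of those tested, 428 with a higher and 557 with a lower value at D20. Without a composition factor this split was 767 and 379. Of the 1904 genes called at D20 and not at D1, 601 had a called difference, and for the other genes a difference was not shown. With 1 flask left out the count of 985 became 1731 without D1 replicate 2, from which 110 genes lay more than 1 log2 unit from the mean of the other D1 flasks, and to 549 without D1+ TGF-β replicate 2. It was 561 and 623 without D20 replicates 3 and 2, and 632 without D1+ TGF-β replicate 1.

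Some genes were called in opposite directions at the 2 times, 48 higher at D1 and lower at D20 and 20 the other way. ITGB3 had log2 fold changes of 1.91 at D1 and −1.26 at D20, and GBP1, an interferon-inducible GTPase, of 0.95 and −1.72. GBP1 was at 72.7, 74.1 and 76.4 cpm in D20 and 20.3, 21.6 and 26.4 cpm in D20+ TGF-β. CNN1, ACTN1, SMURF2 and CDH11, a mesenchymal cadherin, were also among the 48. CDH11 lost its D20 call without any 1 of D20 replicates 2 and 3 and D20+ TGF-β replicates 1 and 3, and its range over the alternatives was −0.65 to −0.46. Genes that responded at D20 with a D1 value near 0 included PTPRN, a membrane protein of secretory granules, at 13, 11.5 and 14.6 cpm against 69.1, 69.4 and 58.2 cpm (D1 log2 fold change 0.19). TMEM158 was at 173, 168 and 161 cpm against 543, 519.7 and 489.9 cpm (D1 −0.08), and PDLIM1, an actin-associated LIM protein, at 535, 568 and 556 cpm against 199.6, 199 and 187 cpm (D1 −0.03). The D1 mean of PTPRN, 23.2 cpm, lay between the groups, that of TMEM158, 506 cpm, within the range of the D20+ TGF-β flasks, and that of PDLIM1, 175 cpm, below them. Passage number and days in culture differed along with day, so they cannot be told apart from it in any level compared between D1 and D20.

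**Figure D5:**
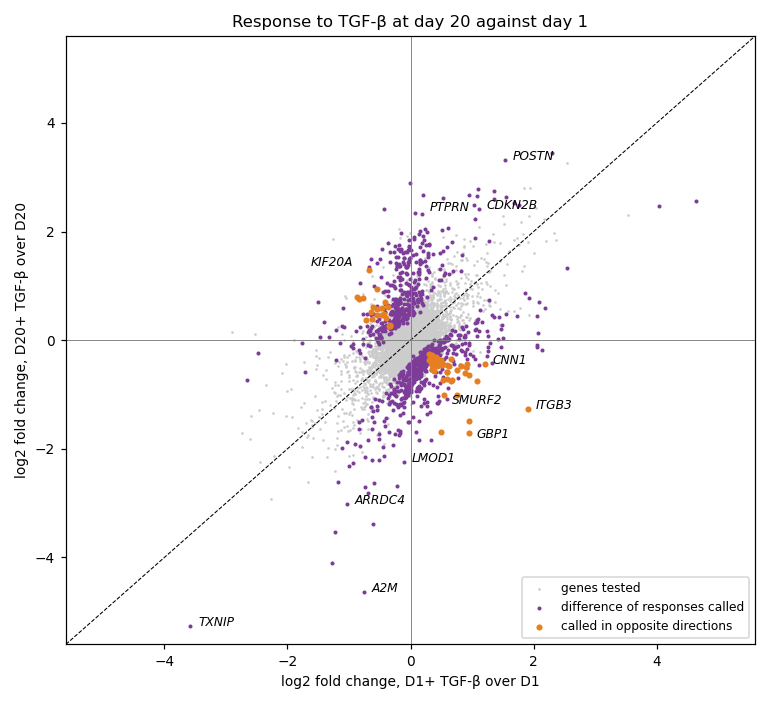
Log2 fold change of D20+ TGF-β over D20 (vertical) against that of D1+ TGF-β over D1 (horizontal) for the 9490 genes tested. Purple points are genes with a called difference of the responses, orange points are the 68 genes called in opposite directions, and the dashed line marks equal responses. CNN1, ITGB3, SMURF2 and GBP1 lie at the lower right, and LMOD1 and PTPRN near 0 on the horizontal axis.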

How the data were processed

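RNA-seq counts of 12 WI-38 libraries, each sequenced on 4 lanes of a NextSeq 500 as paired ends, were used as the authors deposited them. The authors trimmed reads with Trimmomatic and aligned them to hg19 with Rsubread. The library kit marks strand, whereas the counting program, annotation and strand setting are not given in the sources used here, so overlapping and antisense genes cannot be told apart. The authors also deposited log2 values for 9412 genes, made with limma, which served as an alternative.

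The 4 lane columns of a library were summed, and all 48 lane columns were assigned. The filter kept 9490 of 25702 genes, those that 6 or more libraries held at 10 cpm or above, and these were tested with edgeR 4.0.16 in R 4.3.3 (TMM, quasi-likelihood F-test, 1 mean per condition, all 12 libraries, Benjamini-Hochberg adjustment, called under 0.01). Genes outside that filter came from a fit of 13585 genes on the 6 day-20 libraries with filterByExpr. A log2 fold change is edgeR's, and cpm are TMM scaled. Library totals limit the precision of low genes. Replicate libraries differed by more than counting noise, so each was kept as 1 replicate. The scripts were tested on simulated data.

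The 48 gene lists and the members were chosen with earlier results of these data known. Named were the 12 called genes with the largest fold in each direction and no overlap of flasks, key members and the 4 called members of each list with the smallest p in each direction, the 8 largest changes each way outside the filter, the 8 largest gains and losses in share of counts, and the 6 genes each way with the smallest p for the difference of responses. Gene positions are GENCODE v44 lifted to GRCh37 and promoters are RefSeq, GRCh38.p14, read from 250 bases before to 50 after the start, matched by gene identifier. Alternatives were DESeq2 1.42.0, limma 3.58.1, other scaling factors, filters, thresholds and units, a replicate block and leaving out each flask. Many genes that the rule names are left out of the text, and some genes of these lists are not reported here.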

Additional observations from a re-analysis of the deposited data

Results flagged for a closer look

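The test of the difference between the D20 and D1 responses to TGF-β picked out 985 genes, of which 68 were called in opposite directions at the 2 times. Of the genes named by rule, 135 had a called difference.

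The 6 genes in each direction with the smallest p for that difference are given as the D20 log2 fold change minus the D1 log2 fold change. The positive ones were PTPRN at 2.14, TMEM158 at 1.71, CDCP1 at 1.66, SV2A at 1.42, NTM at 1.40 and SLC20A1 at 1.11. The negative ones were GBP1 at −2.67, LMOD1 at −2.14, ARRDC4 at −1.99, PRSS23 at −1.97, PDLIM1 at −1.47 and FBLIM1 at −1.29. All 6 of the first kind were called higher at D20, and all 6 of the second kind were called lower. Of the 12, SLC20A1, NTM and GBP1 were called higher at D1, ARRDC4 was called lower, and the other 8 were not called.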

How the results depend on the processing

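Against 2609 called genes, 5154 were called with the 48 lane columns taken as samples and 3924 at an adjusted p under 0.05. Of 517 genes with a log2 fold change of 1 or more, the count became 1224 with no filter and 1107 with filterByExpr, where more genes were tested, and 142 when edgeR tested against a fold change of 2. The 985 differences of responses became 3703 with lane columns, 2040 at the looser threshold, and 549 to 1731 with 1 flask left out. Leaving out 1 day-20 flask gave 1795 to 2269 and 477 to 525 genes. Lists with 50% or more of at least 5 tested members called in 1 direction numbered 14, 29 with lane columns and 6 to 14 with 1 flask left out. With the replicate number as a block, the counts were 2379, 514, 831 and 12. Deviations from the group mean of same-numbered flasks of D20 and D20+ TGF-β had correlations of −0.18, 0.00963 and −0.177. Those of unlike numbers ran from −0.2 to 0.236. With 3 flasks a group these values cannot decide whether the numbers pair the flasks. Of 303 named genes called, 253 kept the call under every alternative run, and no called gene changed direction. The looser threshold, 1 of the alternatives, cannot remove a call. Genes outside the filter, such as COL10A1, were run under 9 alternatives, where a gene such as MYL9 had 18. Library depth limits genes of a few cpm.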

Other observations

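Of 32 lysosomal genes, 3 were called higher and 5 lower, near the 12.8% and 14.7% of all genes. CTSK, the collagen-degrading cathepsin K, rose from 174, 198 and 182 cpm to 614, 549 and 421 cpm and CTSC, cathepsin C, fell from 652, 699 and 751 cpm to 205, 204 and 143 cpm. CTSK had a D1 log2 fold change of −0.00, and the difference of the responses was called for both genes (adjusted p = 4.58e-04 and 4.69e-05). Cytosolic ribosomal proteins had 75 of 77 values above 0 with a median of 0.20, and 6 were called higher, 2 without D20+ TGF-β replicate 3 and 0 to 64 over the alternatives, against 12.8% of all genes. Nuclear oxidative phosphorylation genes had 5 of 76 called lower, against 14.7% of all genes, and a median of −0.07.

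Cell-cell adhesion genes were called higher in 3 of 14 and lower in 4, against 12.8% and 14.7% of all genes. CDH2, N-cadherin, rose from 24.2, 23.4 and 23.6 cpm to 84.9, 84.1 and 109 cpm, and DSP, desmoplakin, from 9.12, 11.4 and 11.6 cpm to 24.1, 32.4 and 33.7 cpm. The gap junction gene GJA1 was not called. Of 10 AP-1 and immediate early genes, 4 were called higher and 3 lower (1 lower without D20+ TGF-β replicate 3). JUND rose from 66.3, 72.9 and 68.1 cpm to 118, 119 and 108 cpm, and KLF6 fell by 0.58 on the log2 scale. In the list of the glucocorticoid receptor and its targets, 3 of 10 were called higher (1 to 5 over the alternatives), the receptor NR3C1 among them, which lost the call under 7 of 18 alternatives. MT2A, a metallothionein, rose from 441, 371 and 331 cpm to 887, 763 and 626 cpm. CD14, a lipopolysaccharide co-receptor from the leukocyte marker list, singled out after its values were seen, was at 5.43, 5.92 and 6.3 cpm in D20 and 0.514, 0.411 and 0 cpm in D20+ TGF-β, while PTPRC and LYZ from the same list were at or near 0 in both.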
